A study of Homo sapiens with 16 samples.

Results

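The comparison described here asked where 2 neuroblastoma cell lines, IMR5-75 and Be(2)-C, answered the same pair of epigenetic drugs differently. Its value for each gene was the log2 change under both drugs in IMR5-75 minus the log2 change under both drugs in Be(2)-C, so a positive value (called higher) means that the change was more positive in IMR5-75. It used 8 of the 16 RNA sequencing libraries, in 4 groups of 2: each line after solvent (DMSO) and after DAC at 1 µM for 72 h together with EPZ-6438 at 1 µM for 96 h. The other 8 libraries, each line after DAC alone or EPZ-6438 alone, entered the same fit and are quoted where they place a value. Cells of all groups were grown in RPMI medium with serum, and each line is a single clonal derivative of 1 tumour line, so a difference between them belongs to these 2 lines. No label says that the 2 libraries of a group came from separate cultures, so the p-values measure the spread between libraries, which may be technical.

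DAC, which the labels do not spell out, usually stands for decitabine, a nucleoside analogue that is built into DNA and traps DNA methyltransferases, so that methylation is lost as cells divide. EPZ-6438 (tazemetostat) inhibits EZH2, the enzyme of the Polycomb complex that places a repressive methyl mark on histone H3. Both systems keep genes silent, and a gene silent in one line can be active in another. Neuroblastoma arises from sympathetic precursor cells, and both lines are known for amplified MYCN.

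Counts per library lay between 9539557 and 14032155 over the 16 libraries. Of 23459 genes in the table, 15967 passed the filter on low counts and were tested; the other 7492, of which 1191 had no count anywhere, were not. Levels are given as CPM (counts scaled to library size and composition, TMM), log2 changes with their standard error (SE), and adjusted p-values from edgeR with a call at an adjusted p under 0.05. The sympathetic markers PHOX2A, HAND2, GATA3, ISL1, DBH, MYCN and CHGA were present in all 8 libraries, and the sum over the 9 markers of the list was 2890 to 3440 CPM in IMR5-75 and 8260 to 9690 CPM in Be(2)-C. TH itself, the enzyme that starts catecholamine synthesis, stood at 0 to 1.18 CPM in IMR5-75. In bulk RNA, fewer cells with a transcript and less transcript per cell cannot be told apart.

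The change under both drugs differed between the lines for 1766 of the 15967 genes tested, 11.1% of them. It was higher in IMR5-75 for 1071 genes (6.71%) and lower for 695 (4.35%). At an unadjusted p under 0.05 the number was 3863. Within the lines, 7370 genes (46.2%) were called in IMR5-75, of which 4109 rose (25.7% of those tested) and 3261 fell (20.4%). For Be(2)-C the number was 3777 (23.7%), of which 2113 rose (13.2%) and 1664 fell (10.4%). Of the 1071 higher genes, 733 rose in IMR5-75 and were not called in Be(2)-C, 217 rose in both lines, 65 rose in IMR5-75 and fell in Be(2)-C, 39 fell in Be(2)-C and were not called in IMR5-75, 13 were called in neither line and 4 fell in both. Of the 695 lower genes, 291 fell in IMR5-75 and were not called in Be(2)-C, 192 rose in Be(2)-C and were not called in IMR5-75, 72 fell in both, 65 fell in IMR5-75 and rose in Be(2)-C, 56 rose in both and 19 were called in neither. The number called was 1074 without Be(2)-C DMSO replicate 1, 1156 without Be(2)-C DMSO replicate 2 and 1130 without the first Be(2)-C library under both drugs; the number lower was 303, 363 and 360 without those, 415 without IMR5-75 DMSO replicate 1 and 286 without the second IMR5-75 library under both drugs. The number called in Be(2)-C was 2100 and 2199 without its DMSO replicates 1 and 2 and 2241 without its second library under both drugs.

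**Figure D1:**
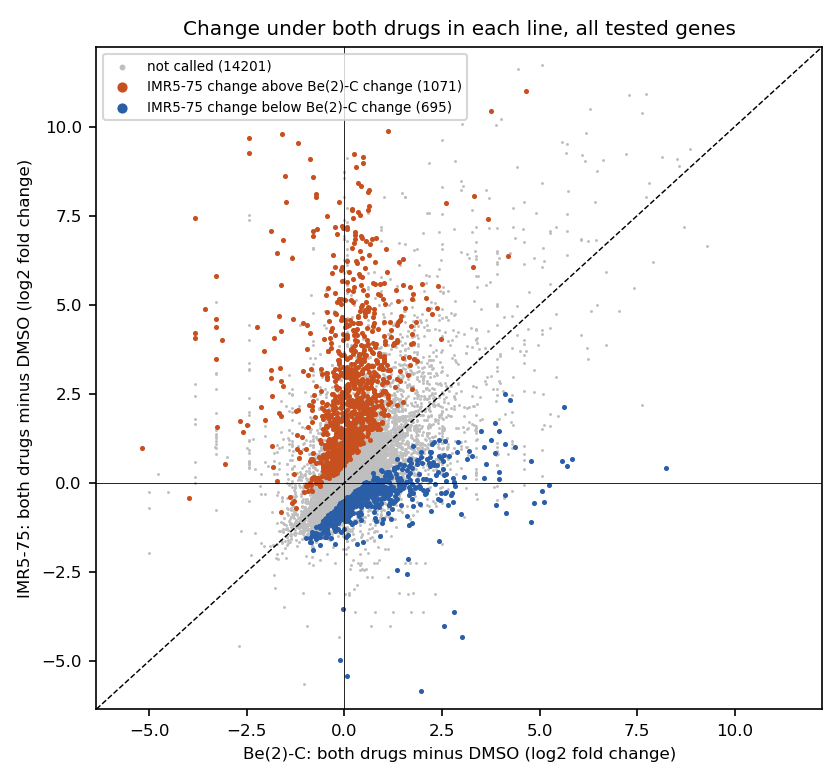
Log2 change under both drugs in Be(2)-C (x axis) and in IMR5-75 (y axis), 1 point per tested gene, with the dashed line marking equal change. The 1071 higher genes (orange) lie above the dashed line and the 695 lower genes (blue) lie below the dashed line.

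Low starting levels in IMR5-75 were found for part of the higher genes. Of the 1071, 310 had under 10 counts in IMR5-75 DMSO over both libraries, against 1371 of the 14201 genes not called. Of the 695 lower genes, 46 had under 10 counts in Be(2)-C DMSO, against 1627 of those not called. A gene with so few counts in a group passed the filter only through other groups and could hardly fall further there. These counts are thus partly set by the filter and the floor, and are a description. The distance between the lines, taken as the absolute log2 difference in level, had a median of 2.64 under DMSO and 1.62 under both drugs over the higher genes, and was smaller under both drugs for 798 of them (74.5%). Over the lower genes the medians were 1.05 and 0.826, and the distance was smaller for 457 (65.8%). Over all tested genes the medians were 0.756 and 0.759, with a smaller distance for 8381 (52.5%). The difference of the changes and these distances come from the same 8 libraries, so the shares are a description. Among called genes with at least 10 counts in each of the 4 groups, the median difference was 1.3 over 742 higher genes, of which 162 exceeded 2, and -0.82 over 641 lower genes, of which 34 lay below -2.

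Histone genes held the 2 widest positive differences among called genes with at least 10 counts in each group. Replication-dependent histone genes supply the proteins that package newly copied DNA in S phase, and their messages mostly lack a poly(A) tail; the libraries were made by ribosomal RNA depletion, which keeps such messages. Of the 59 genes on the list, 58 were tested and 20 were higher in IMR5-75, against 6.71% of all tested genes; none was lower. In Be(2)-C, 55 of the 58 fell under both drugs and 2 rose (10.4% and 13.2% of all tested genes). In IMR5-75, 35 fell and 20 rose (20.4% and 25.7% of all tested genes). The 35 that fell in IMR5-75 stood at 35.9 to 1690 CPM after DMSO, and the 20 that rose at 0 to 1.46 CPM. A gene near 0 after DMSO could hardly be called as falling, so this split is partly set by the floor and is a description. Of those 20, 18 had a called difference from Be(2)-C, where they started at 26.3 to 1210 CPM and fell to 15.9 to 401 CPM. The other 2 that rose, HIST1H1A and HIST1H4F, were near 0 in both lines after DMSO and rose in both. The median difference over the 44 members with at least 10 counts in every group was 0.00203, beside -0.0541 over all 13066 such genes.

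HIST1H1B encodes linker histone H1.5, which binds between nucleosomes. It stood at 0.0737 and 0 CPM after DMSO in IMR5-75 and at 33.3 and 54.2 CPM under both drugs, while in Be(2)-C it stood at 1244 and 1182 CPM and then 415 and 387 CPM. Both treated IMR5-75 libraries lay far above both DMSO libraries, and in Be(2)-C the order was the reverse. IMR5-75 had 1 count after DMSO and 1243 under both drugs, a ratio of 1120-fold (95% interval 201 to 44400); the log2 change in Be(2)-C was -1.6 ± 0.16 (adjusted p = 5.25e-07), and the difference was called (adjusted p = 2.67e-12). DAC alone gave 34.1 and 29.6 CPM in IMR5-75 and EPZ-6438 alone 0.867 and 0.393 CPM.

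HIST1H1D, which encodes linker histone H1.3, went from 2 to 588 counts in IMR5-75, a ratio of 266-fold (95% interval 73.2 to 2200), and from 721 and 689.6 to 259 and 238 CPM in Be(2)-C (-1.51 ± 0.14). The H3 genes HIST1H3G and HIST1H3F went from 1 to 189 and from 3 to 169 counts in IMR5-75. HIST1H3J and HIST1H3C, also H3 genes, had enough counts in each group for a fitted difference, 6.62 ± 0.37 (adjusted p = 9.4e-11) and 6.37 ± 0.39 (adjusted p = 3.07e-10); without IMR5-75 DMSO replicate 1 the latter was 7.12. HIST1H3J stood at 0.958 and 0.673 CPM in IMR5-75 after DMSO, 12.9 and 21.9 under both drugs, and in Be(2)-C at 291 and 273 CPM, then 66.4 and 53 CPM. The H2B genes HIST1H2BE and HIST1H2BB differed by 5.03 ± 0.29 and 4.89 ± 0.39 (5.68 without IMR5-75 DMSO replicate 2), and the H2A gene HIST1H2AL by 4.83 ± 0.45. Even after their rise, the 18 genes stood at 0.802 to 43.8 CPM in IMR5-75, and each of the 18 was still called below Be(2)-C under both drugs, as were 33.5% of all tested genes. Histone genes have near-identical copies, so reads could fit more than 1 copy and the value of any 1 copy is uncertain.

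The start regions of 2 of these genes are printed to show the CG pairs, the sites that DNA methyltransferases modify, at genes with wide differences. They come from RefSeq, build GRCh38.p14, 300 bases around the annotated start read 5′ to 3′ on the gene's strand, with each CG in capitals; 96% of 35116 such RefSeq windows hold at least 1 CG. The authors counted on hg19, so no coordinate below belongs to their table, and methylation was not measured. HIST1H1B (RefSeq H1-5) is at chr6:27867539-27867838 on the minus strand with 13 CG pairs and 47.3% G or C, and HIST1H1D (H1-3) at chr6:26234938-26235237 on the minus strand with 11 CG pairs and 45% G or C.
HIST1H1B: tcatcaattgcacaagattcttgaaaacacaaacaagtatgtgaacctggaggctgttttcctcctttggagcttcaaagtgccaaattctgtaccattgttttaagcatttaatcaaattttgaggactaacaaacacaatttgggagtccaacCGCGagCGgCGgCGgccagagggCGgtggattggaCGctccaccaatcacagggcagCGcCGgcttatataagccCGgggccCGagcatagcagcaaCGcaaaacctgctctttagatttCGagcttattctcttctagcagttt
HIST1H1D: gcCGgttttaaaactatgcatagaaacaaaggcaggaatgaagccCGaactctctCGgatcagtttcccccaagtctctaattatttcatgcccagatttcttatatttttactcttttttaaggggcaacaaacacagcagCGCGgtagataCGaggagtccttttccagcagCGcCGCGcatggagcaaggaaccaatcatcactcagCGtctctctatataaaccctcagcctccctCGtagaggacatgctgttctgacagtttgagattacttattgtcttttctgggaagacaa
A comparison of CG content between called and other genes is void, since only 74.8% of the tested genes and 76.1% of the higher ones had a matching window.

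**Figure D2:**
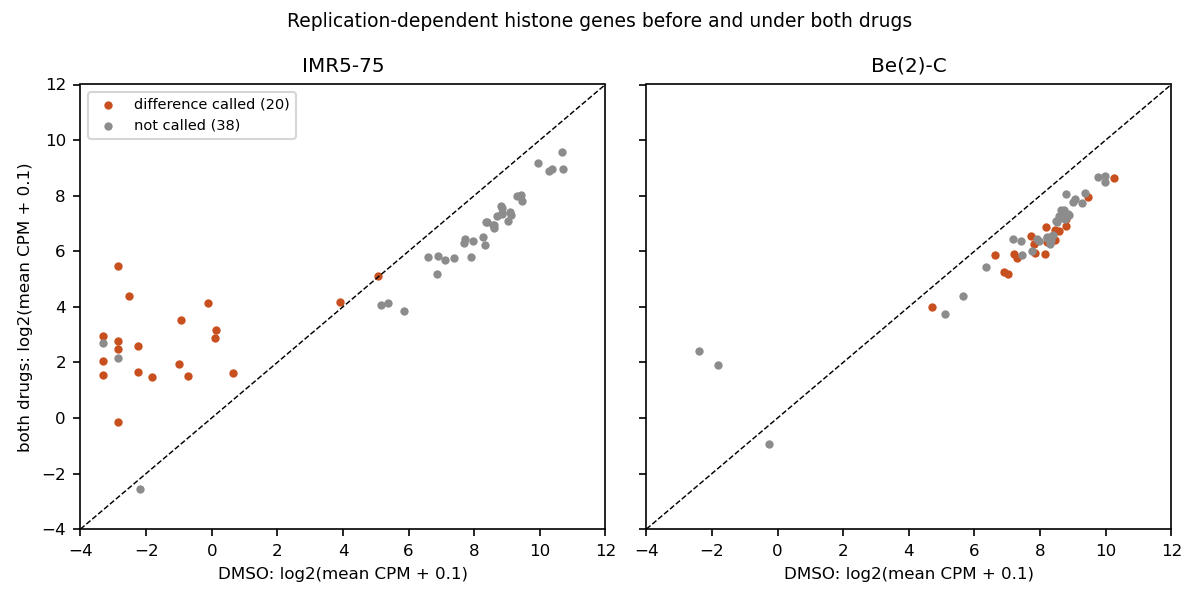
Mean level of each of the 58 tested replication-dependent histone genes after DMSO (x axis) and under both drugs (y axis), as log2(CPM + 0.1), in IMR5-75 (left) and Be(2)-C (right), 2 libraries per mean. The 20 genes with a called difference (orange) lie above the dashed line of no change in IMR5-75, 18 of them called there and starting at 1.46 CPM or less, and below it in Be(2)-C.

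Clustered protocadherins rose in IMR5-75 with few exceptions and in Be(2)-C in part. These cell-surface proteins give neurons individual identities; the genes stand in 3 arrays, alpha, beta and gamma, in which each variable exon has its own promoter. Of 53 genes on the list, 52 were tested and 35 were higher in IMR5-75 (background 6.71%) with none lower: 10 of 15 alpha, 11 of 15 beta and 14 of 22 gamma genes. In IMR5-75, 49 rose and none fell. Over all tested genes, 25.7% rose and 20.4% fell in IMR5-75, and 13.2% rose in Be(2)-C. In Be(2)-C, 21 rose, and 11 without DMSO replicate 1 or 13 without the second library under both drugs. The median level over the beta genes was 0.268 CPM in IMR5-75 after DMSO and 3.22 under both drugs, and 5.61 and 11.2 CPM in Be(2)-C. Only 12 members had at least 10 counts in every group, with a median difference of 0.867. A member with almost no counts after DMSO could hardly fall, so these shares are partly set by the filter and the floor. Alpha and gamma genes share constant exons within an array, so reads from those exons fit more than 1 member. How such reads were counted is not given.

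PCDHB2 stood at 0.147 and 0.0841 CPM in IMR5-75 after DMSO and 15 and 14.6 CPM under both drugs, against 16.6 and 17.7 CPM and 27.3 and 29 CPM in Be(2)-C. The treated IMR5-75 libraries came close to the untreated Be(2)-C libraries. Its counts in IMR5-75 rose from 3 to 417, 126-fold (95% interval 42.7 to 611), and the change in Be(2)-C was 0.72 ± 0.15 (adjusted p = 0.00109). DAC alone already gave 17.1 and 16.5 CPM in IMR5-75 and EPZ-6438 alone 0.473 and 0.236 CPM. PCDHB15 differed by 3.54 ± 0.35 (adjusted p = 3.09e-07). The PCDHB2 window, at chr5:141094365-141094664 on the plus strand of GRCh38.p14, is shown as that of the clustered protocadherin with the smallest adjusted p, with its 10 CG pairs in capitals.
PCDHB2: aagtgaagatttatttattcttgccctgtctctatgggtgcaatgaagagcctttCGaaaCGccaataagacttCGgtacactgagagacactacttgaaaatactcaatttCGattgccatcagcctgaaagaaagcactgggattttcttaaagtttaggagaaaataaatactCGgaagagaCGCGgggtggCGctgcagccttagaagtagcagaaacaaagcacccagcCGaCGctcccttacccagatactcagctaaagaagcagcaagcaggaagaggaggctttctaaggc

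Further genes with few or no counts in untreated IMR5-75 are given next; all but LIX1 stood at over 10 CPM in Be(2)-C after DMSO. STMN2 encodes stathmin-2, a microtubule regulator of growing axons. It had 0 counts in both IMR5-75 DMSO libraries and 4.92 and 6.74 CPM under both drugs, at least 49.7-fold higher against a floor of 3 counts over the group; in Be(2)-C it went from 1147 and 1151 to 1719 and 1486 CPM (0.48 ± 0.12, adjusted p = 0.00774). TDRD1, a germ-cell protein of the piRNA pathway, went from 3 to 847 counts in IMR5-75, 255-fold (95% interval 87 to 1240), and stood at 157 and 160.3 CPM after DMSO and 147 and 142 CPM under both drugs in Be(2)-C. AKR1C1, an aldo-keto reductase, had 0 counts and then 2.13 and 2.13 CPM in IMR5-75, at least 18.1-fold higher, against 24.9 and 27.1 CPM after DMSO in Be(2)-C, where no change was called. RGS16, which shortens G-protein signals, had enough counts for a fitted value: 0.737 and 0.589 CPM rose to 23 and 25.3 in IMR5-75, while Be(2)-C stood at 171 and 181 CPM, then 165 and 170.0 CPM, a difference of 5.23 ± 0.35 (adjusted p = 1.46e-09). FUCA2, a secreted fucosidase, differed by 4.38 ± 0.33. LIX1 ran the other way round in level, 0.811 and 0.252 CPM to 22.1 and 21.5 CPM in IMR5-75 against 0.816 and 1.29 CPM, then 1.87 and 1.99 CPM in Be(2)-C, a difference of 4.42 ± 0.68 (5.50 without IMR5-75 DMSO replicate 1).

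**Figure D3:**
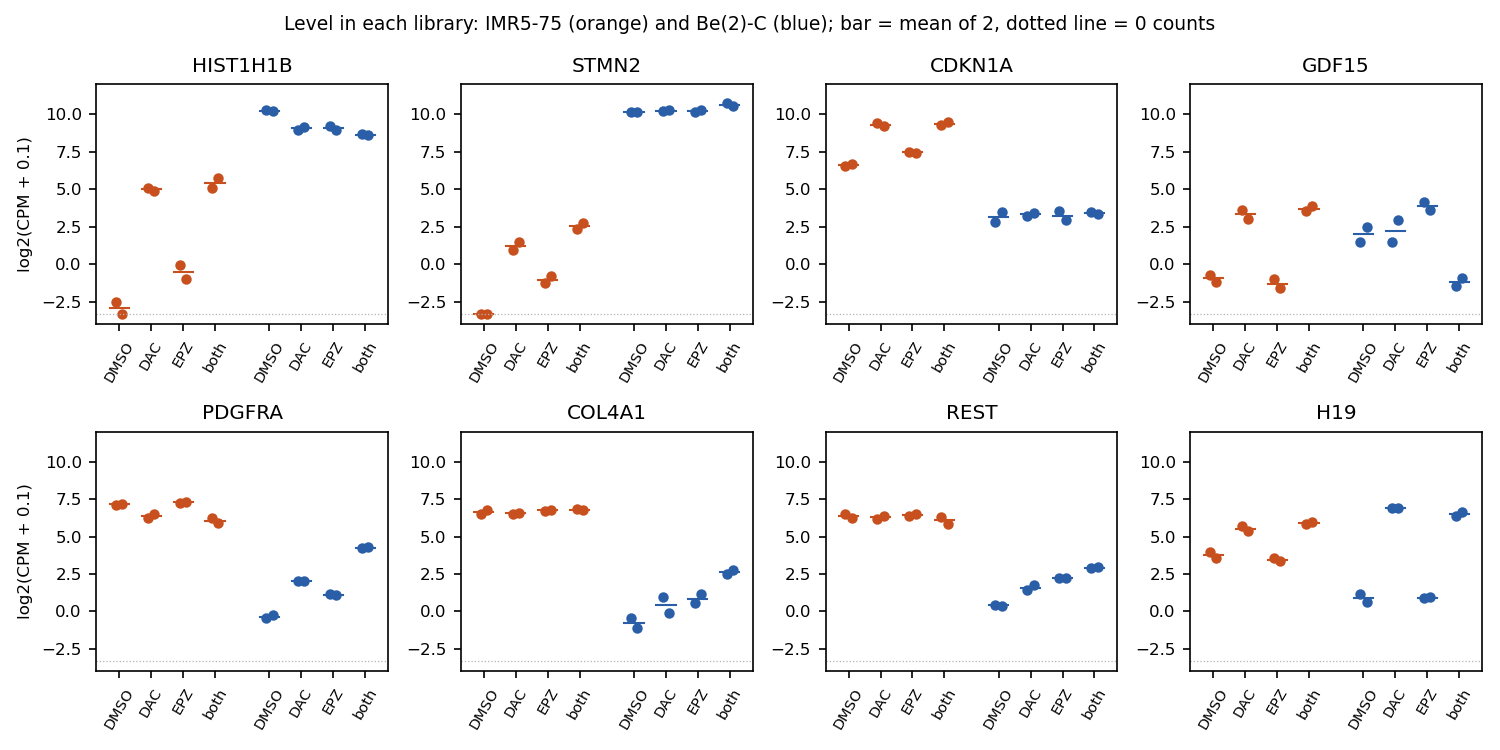
Level of 8 genes in each of the 16 libraries as log2(CPM + 0.1), with IMR5-75 in orange, Be(2)-C in blue and a bar at the mean of the 2 libraries of a group. HIST1H1B, STMN2, CDKN1A and GDF15 rose in IMR5-75 under both drugs; PDGFRA, COL4A1, REST and H19 rose in Be(2)-C, and in IMR5-75 rose by less (H19), were not called (COL4A1, REST) or fell (PDGFRA).

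Targets of p53, the transcription factor that answers DNA damage with arrest or death, were among the lists with the largest share of higher genes. Of 35 listed genes, 34 were in the table and 33 tested; 21 were higher in IMR5-75 (background 6.71%) and none was lower. In IMR5-75, 27 rose and 1 (PMAIP1, which encodes the BH3 protein NOXA) fell, or none without the second IMR5-75 library under both drugs; in Be(2)-C, 9 rose and 6 fell, or 7 and 3 without the second Be(2)-C library under both drugs. Over all tested genes, 25.7% rose and 20.4% fell in IMR5-75, and 13.2% rose and 10.4% fell in Be(2)-C. The median difference over the 27 members with at least 10 counts in each group was 0.753, beside -0.0541 over all such genes. CDKN1A, the cell cycle inhibitor p21, stood at 94.4 and 105 CPM in IMR5-75 after DMSO and 624 and 714 CPM under both drugs. The Be(2)-C values were 7.07 and 11 CPM and 11.2 and 10.3 CPM, which overlap. The difference was 2.49 ± 0.25 (adjusted p = 4.12e-07). DAC alone gave 686 and 596 CPM in IMR5-75 and EPZ-6438 alone 179 and 172 CPM.

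DDB2, a damage-recognition protein of excision repair, rose from 4.06 ± 0.511 to 17 ± 1.17 CPM (SD, n = 2) in IMR5-75 and fell from 7.93 ± 1.86 to 4.46 ± 0.234 CPM in Be(2)-C, a difference of 2.88 ± 0.29 (adjusted p = 4.68e-07). GADD45A, a stress-induced arrest gene, differed by 1.4 ± 0.20, the autophagy gene SPATA18 by 1.72 ± 0.24 and SESN2, an inhibitor of mTORC1 signalling, by 1.4 ± 0.25. Among genes that promote death, BBC3, which encodes PUMA, rose in both lines, by 2.19 ± 0.20 in IMR5-75 and 0.94 ± 0.19 in Be(2)-C (difference 1.25 ± 0.28), and BAX rose by 0.47 ± 0.13 in IMR5-75 and was not called in Be(2)-C (-0.32 ± 0.14). AEN, a nuclease, was higher; it fell in Be(2)-C (-0.94 ± 0.12) and was not called in IMR5-75 (-0.22 ± 0.12); its call ended without the first Be(2)-C library under both drugs. The death receptor gene TNFRSF10A had 0 counts in IMR5-75 after DMSO and 5.57 ± 0.194 CPM under both drugs, against 0.457 ± 0.133 and 0.246 ± 0.0965 CPM in Be(2)-C. TNFRSF10B and CYFIP2 were among the members not called, at -0.20 ± 0.30 and -0.039 ± 0.19. The difference was positive for 29 of the 33 tested members and negative for 4, with a lowest value of -2.91 that was not called.

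**Figure D4:**
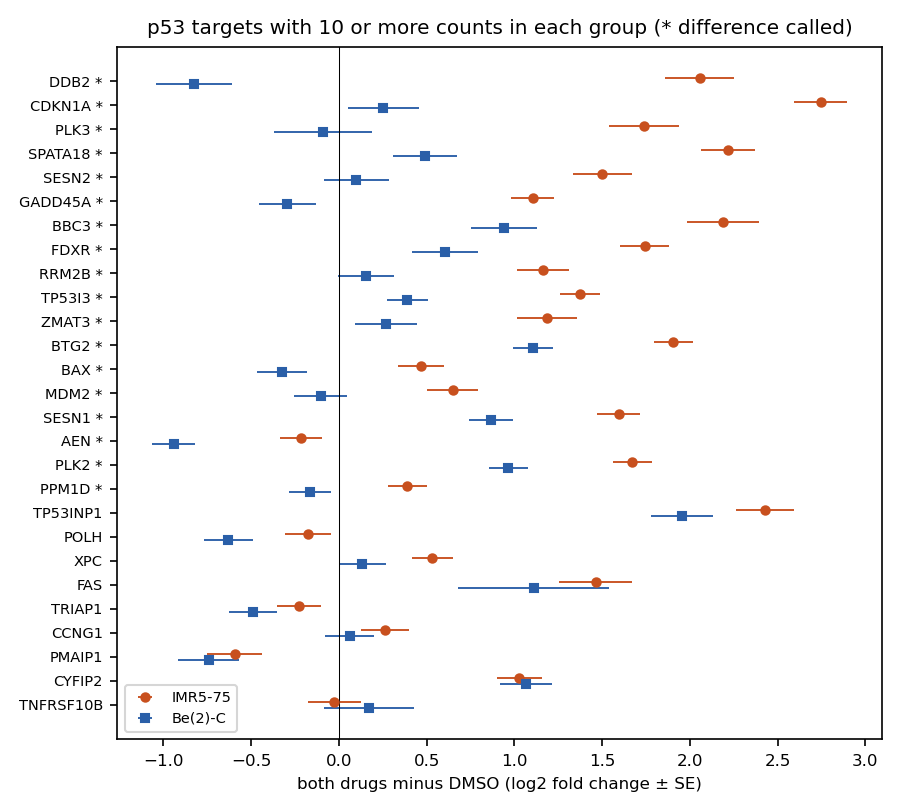
Log2 change under both drugs with its SE for the 27 listed p53 targets that had at least 10 counts in each of the 4 groups, in IMR5-75 (orange circles) and Be(2)-C (blue squares), ordered by their difference. A star marks a called difference; in each starred gene the IMR5-75 change lies to the right, with CDKN1A at 2.75 against 0.25.

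Genes of neuronal maturation differed in both directions, with more of them higher in IMR5-75. Of 59 listed genes of neuronal maturation, 58 were tested, 27 were higher (background 6.71%) and 5 lower (4.35%); the median difference over 45 members with at least 10 counts per group was 0.876. In IMR5-75, 43 rose and 7 fell, with 4 and 3 falling without its first and second library under both drugs. In Be(2)-C, 23 rose and none fell, with 11, 14 and 13 rising without DMSO replicate 1, DMSO replicate 2 and the second library under both drugs. Over all tested genes, 25.7% rose and 20.4% fell in IMR5-75, and 13.2% rose and 10.4% fell in Be(2)-C. The neurofilament gene NEFH, part of the axonal skeleton, stood at 0.811 and 0.925 CPM and then 21 and 20.3 CPM in IMR5-75, and at 46.8 and 45.2 CPM, then 44.5 and 49.3 CPM, in Be(2)-C. Treated IMR5-75 libraries thus reached a level below both Be(2)-C groups, and the difference was 4.53 ± 0.37 (adjusted p = 1.9e-08). NEFM and NEFL, the other neurofilament genes, differed by 2.41 ± 0.19 and 1.3 ± 0.14.

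PRPH, which encodes the peripheral neuron filament peripherin, rose from 19.2 and 17.7 to 249.7 and 298 CPM in IMR5-75 and from 523 and 496 to 725 and 820.2 CPM in Be(2)-C, a difference of 3.29 ± 0.23 (adjusted p = 1.8e-09). The granins of secretory vesicles followed: SCG2 differed by 3.34 ± 0.23, CHGA by 1.91 ± 0.17 and CHGB by 1.38 ± 0.19. CHGA rose from 180.2 and 175 to 740.5 and 828 CPM in IMR5-75 and was not called in Be(2)-C, at 2811 and 2716 CPM after DMSO and 3068 and 3437 CPM under both drugs. The neuropeptide precursor VGF differed by 3.0 ± 0.39, the vesicle protein SYT4 by 3.85 ± 0.29 and the growth cone protein GAP43 by 1.89 ± 0.29. The 5 lower genes included GFRA2 (-1.1 ± 0.16), a receptor for neurturin, the calcium channel gene CACNA1B (-1.22 ± 0.28), the RNA-binding ELAVL2 (-1.25 ± 0.24) and the adhesion gene NCAM1 (-0.75 ± 0.18); the call for NCAM1 ended without IMR5-75 DMSO replicate 1 or the second IMR5-75 library under both drugs.

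Of 29 tested genes of noradrenergic identity, 8 were higher (background 6.71%) and 3 lower (background 4.35%; SOX11 and SLC18A2 among them), and 1 lower without Be(2)-C DMSO replicate 1 or 2, the second Be(2)-C library under both drugs, or either IMR5-75 library under both drugs. DBH, which makes noradrenaline from dopamine, rose from 1.51 ± 0.47 to 14.1 ± 0.301 CPM (SD, n = 2) in IMR5-75 and stood at 167 ± 6.32 and 187 ± 25.2 CPM in Be(2)-C, where it was not called; the difference was 3.04 ± 0.34 (adjusted p = 1.8e-06). ADCYAP1, which encodes the neuropeptide PACAP, rose from 1.47 and 1.35 to 30.4 and 33.5 CPM in IMR5-75 and from 48.4 and 53.9 to 70.3 and 65 CPM in Be(2)-C, a difference of 4.08 ± 0.23 (adjusted p = 1.02e-10). MEG3, a long RNA expressed from the maternal copy, differed by 2.62 ± 0.56, but by 7.39 without IMR5-75 DMSO replicate 1, in which all 7 of its DMSO counts lay, and by 1.72 without replicate 2.

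Genes that report growth factor and morphogen signals also held called differences. Of 35 tested immediate early genes and feedback inhibitors, 12 were higher (background 6.71%) and none lower, with a median difference of 0.822 over 30 members. In IMR5-75, 23 rose, where 25.7% of all tested genes did. In Be(2)-C, 4 rose, a share near the 13.2% of all tested genes, and fewer without either DMSO replicate. ETV5, a transcription factor downstream of ERK, rose from 8.92 and 10.0 to 40.4 and 39.2 CPM in IMR5-75 and was not called in Be(2)-C, at 61.8 and 65.3 CPM, then 50.2 and 54.1 CPM, a difference of 2.36 ± 0.19 (adjusted p = 1.67e-08). DUSP4, which dephosphorylates ERK, differed by 1.86 ± 0.18, SPRY4, an inhibitor of receptor signalling, by 2.1 ± 0.36, and the neuronal activity gene ARC by 2.43 ± 0.31. FOS differed by 1.84 ± 0.45, a call that ended without IMR5-75 DMSO replicate 1.

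HES1, a transcriptional repressor induced by NOTCH, stood at 1.03 and 0.757 CPM in IMR5-75 after DMSO and 17.6 and 20.0 CPM under both drugs. Be(2)-C libraries stood at 15.5 and 12.3 CPM after DMSO and 14.3 and 13.8 CPM under both drugs. IMR5-75 thus went from below to above Be(2)-C, with a difference of 4.35 ± 0.33 (adjusted p = 1.03e-08). HEY1, another NOTCH target, differed by 2.41 ± 0.29 and rose in both lines. Of 37 tested WNT and NOTCH genes, 11 were higher (background 6.71%) and 6 lower (4.35%), with 2 lower without Be(2)-C DMSO replicate 1, DMSO replicate 2 or the second Be(2)-C library under both drugs and 3 without the first such library. DKK1, a secreted WNT inhibitor, rose from 3.02 and 0.841 to 66.3 and 62.5 CPM in IMR5-75 and from 24.2 and 26.8 to 60.9 and 44.7 CPM in Be(2)-C, a difference of 3.96 ± 0.33 (5.19 and 3.35 without IMR5-75 DMSO replicates 1 and 2). Of 28 tested BMP and TGF-beta targets, 7 were higher (background 6.71%) and none lower (4.35%). The 7 include HES1 and HEY1, which are also among the 11 higher WNT and NOTCH genes, so the 2 counts overlap. ID3, an inhibitor of basic helix-loop-helix factors, rose in IMR5-75 (1.37 ± 0.14) and fell in Be(2)-C (-0.45 ± 0.14), and ID1 differed by 1.31 ± 0.19. Of 26 tested targets of the oxidative stress factor NRF2, 7 were higher (background 6.71%) and none lower (4.35%), among them AKR1C3 (3.43 ± 0.30) and the quinone reductase NQO1 (1.5 ± 0.25).

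The lower genes led with genes that IMR5-75 already expressed and Be(2)-C gained. PDGFRA, a receptor tyrosine kinase of mesenchymal and glial precursors, stood at 0.634 and 0.735 CPM in Be(2)-C after DMSO and 18.4 and 19.6 CPM under both drugs. In IMR5-75 it fell from 139 and 144 to 74.2 and 58.5 CPM. The groups of each line did not overlap and moved in opposite directions, with a difference of -5.87 ± 0.27 (adjusted p = 6.17e-12), the most negative among called genes with at least 10 counts in every group. In Be(2)-C, DAC alone gave 3.95 and 4.08 CPM and EPZ-6438 alone 2.09 and 2.04 CPM.

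COL4A1 and COL4A2 encode the 2 main chains of basement membrane collagen IV and are transcribed away from each other from a shared start region. COL4A1 rose from 0.634 and 0.367 to 5.61 and 6.71 CPM in Be(2)-C and stood at 92 and 108 CPM, then 113 and 107 CPM, in IMR5-75, a difference of -3.45 ± 0.38 (adjusted p = 1.66e-06). COL4A2 rose from 1.27 and 0.643 to 6.41 and 7.34 CPM in Be(2)-C against 177 and 187 CPM, then 169.7 and 172 CPM in IMR5-75, a difference of -2.92 ± 0.32 (adjusted p = 1.52e-06). Both genes rose together in Be(2)-C, were not called in IMR5-75, and remained below the IMR5-75 level. The COL4A1 window, at chr13:110307108-110307407 on the minus strand of GRCh38.p14, overlaps the COL4A2 window on the other strand by 226 bases; it is shown because the pair shares it, with 45 CG pairs in capitals and 76.7% G or C.
COL4A1: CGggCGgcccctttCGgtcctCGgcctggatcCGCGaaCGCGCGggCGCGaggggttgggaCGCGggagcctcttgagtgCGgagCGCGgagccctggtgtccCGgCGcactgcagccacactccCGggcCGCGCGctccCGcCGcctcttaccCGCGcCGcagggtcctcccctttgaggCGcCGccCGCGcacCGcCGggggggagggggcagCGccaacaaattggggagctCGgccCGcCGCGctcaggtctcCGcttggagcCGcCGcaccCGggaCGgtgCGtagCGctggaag

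REST encodes the repressor that keeps neuronal genes off in non-neuronal cells. It rose from 1.27 and 1.19 to 7.39 and 7.66 CPM in Be(2)-C and stood at 88.8 and 75.5 CPM, then 78.9 and 57.7 CPM, in IMR5-75, where it was not called, a difference of -2.87 ± 0.31 (adjusted p = 1.28e-06). H19, an imprinted long RNA, rose in both lines, from 15.4 and 11.6 to 57.5 and 61.7 CPM in IMR5-75 and from 2.18 and 1.47 to 82.3 and 99.6 CPM in Be(2)-C, which went from below to above IMR5-75; the difference was -3.5 ± 0.28 (adjusted p = 1.74e-08). H19 stood at 118 and 122 CPM after DAC alone and 1.73 and 1.85 CPM after EPZ-6438 alone in Be(2)-C. PKIB, an inhibitor of protein kinase A, rose from 0.816 and 0.826 to 6.41 and 4.93 CPM in Be(2)-C and fell from 332 and 337 to 235 and 229 CPM in IMR5-75 (difference -3.31 ± 0.30). AMOTL2, a junction protein of the Hippo pathway, and NLGN4X, a synaptic adhesion protein, differed by -2.77 ± 0.42 and -2.83 ± 0.42 (-3.63 and -3.53 without Be(2)-C DMSO replicate 2), and MRAS, a RAS-family GTPase, by -2.47 ± 0.39. NKD2, a WNT inhibitor, differed by -2.53 ± 0.60, a call that ended without Be(2)-C DMSO replicate 1 or the first library under both drugs, and stood at -3.21 without DMSO replicate 2.

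Some lower genes had almost no counts in untreated Be(2)-C. F2R, the thrombin receptor, had 1 count after DMSO and 40 under both drugs, 42.2-fold (95% interval 7.16 to 1710), and fell in IMR5-75 from 93.4 and 81.8 to 63.8 and 57.6 CPM. MFNG, a sugar transferase that modifies NOTCH, had 2 and 37 counts in Be(2)-C, 19.5-fold (95% interval 5.04 to 167), and SLC25A24, a mitochondrial carrier, 7 and 100, 15.1-fold (95% interval 7.06 to 38.5). All 7 SLC25A24 counts after DMSO lay in 1 library. NELL2, a secreted neuronal protein, and the kinase gene MST4 had 7 and 5 counts after DMSO in Be(2)-C and 26 and 31 under both drugs; the MST4 call ended without the first Be(2)-C library under both drugs. The call for KIRREL, an adhesion protein, which had 5 and 17 counts in Be(2)-C, ended without any single library of the 8.

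Mesenchymal-type genes split by direction. Of 49 listed, 44 were tested, 15 were higher (background 6.71%) and 9 lower (4.35%; 5 without Be(2)-C DMSO replicate 1), with a median of 0.389 over 30 members. FN1, which encodes fibronectin, rose in both lines, from 10.5 and 9.82 to 84.4 and 101 CPM in Be(2)-C and from 175 and 143 to 326 and 262 CPM in IMR5-75, a difference of -2.3 ± 0.21 (adjusted p = 8.97e-08). The matrix protein gene SPARC differed by -1.21 ± 0.16 and VIM, the intermediate filament vimentin, by -0.92 ± 0.18: VIM rose from 212 ± 20.3 to 416 ± 9.57 CPM (SD, n = 2) in Be(2)-C and was not called in IMR5-75, at 715 ± 24.5 and 740.5 ± 34.2 CPM. Higher members included LGALS1 and ACTA2: LGALS1, a galectin, rose from 0.868 ± 0.0809 to 4.43 ± 0.448 CPM in IMR5-75 against 91.1 ± 7.87 and 86.3 ± 3.36 CPM in Be(2)-C (2.42 ± 0.30), and ACTA2, smooth muscle actin, differed by 2.67 ± 0.37. TWIST1, a transcription factor of neural crest and mesenchyme, rose in IMR5-75 (0.47 ± 0.13) and fell in Be(2)-C (-0.55 ± 0.13). DCN, a matrix proteoglycan, had 5 and 78 counts in IMR5-75 and fell from 63.4 and 59 to 35.3 and 28.1 CPM in Be(2)-C.

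Proliferation genes fell in both lines, and part of the mitosis genes fell further in IMR5-75. Of 45 mitosis genes, all tested, 45 fell in IMR5-75 and 41 in Be(2)-C, and 18 were lower (background 4.35%) with a median of -0.465; the number was 9 to 11 without Be(2)-C DMSO replicate 1 or 2, the first Be(2)-C library under both drugs, IMR5-75 DMSO replicate 1, or either IMR5-75 library under both drugs. Of 53 tested DNA replication genes, 53 fell in IMR5-75 (20.4% of all tested genes fell there) and 49 in Be(2)-C (10.4%), and 4 were lower (background 4.35%), with a median of -0.0499; the number was 1 or 2 without 5 of the single libraries and 0 without the second IMR5-75 library under both drugs. CENPF, a kinetochore protein, fell from 1308 and 1339 to 463 and 439 CPM in IMR5-75 and from 634 and 654 to 513 and 495 CPM in Be(2)-C, a difference of -1.2 ± 0.18 (adjusted p = 8.66e-05). KIF15, a spindle motor, differed by -1.08 ± 0.19. RFC3, which loads the replication clamp, differed by -0.83 ± 0.18, a call that ended without the second IMR5-75 library under both drugs.

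LDHA, the enzyme that makes lactate from pyruvate, fell from 1238 and 1261 to 383 and 373 CPM in IMR5-75 and rose from 36.7 and 38.8 to 48.1 and 46.9 CPM in Be(2)-C, which started far lower, a difference of -2.06 ± 0.15 (adjusted p = 5.59e-09). BCL2, which blocks mitochondrial death signals, fell from 59 and 46.3 to 36.1 and 30.7 CPM in IMR5-75 and rose from 54.2 and 64.4 to 98.7 and 105 CPM in Be(2)-C, a difference of -1.44 ± 0.19 (adjusted p = 1.38e-05). In both genes the 2 lines moved in opposite directions, with no overlap between the groups of a line. The levels of the lines came closer for LDHA and moved apart for BCL2.

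In all, 130 of the 1766 genes were called in opposite directions, 65 each way, and 96 of them had at least 10 counts in every group. GDF15, a stress-induced cytokine and p53 and ATF4 target, rose from 0.516 and 0.336 to 11.4 and 14.5 CPM in IMR5-75 and fell from 2.72 and 5.6 to 0.267 and 0.419 CPM in Be(2)-C, with 7 counts left. The difference was 8.46 ± 0.82 (adjusted p = 2.77e-07), and 7.85 without Be(2)-C DMSO replicate 2. Several genes that fell in IMR5-75 and rose in Be(2)-C had few counts in IMR5-75. KRT19, an epithelial keratin, had 15 counts after DMSO and 0 under both drugs, at least 5.53-fold lower, and rose from 5.53 and 3.58 to 16.3 and 19.2 CPM in Be(2)-C; its call ended without IMR5-75 DMSO replicate 1, which held most of those counts. FLT1, a VEGF receptor, went from 11 to 2 counts in IMR5-75 and rose from 2.72 and 2.75 to 7.39 and 6.61 CPM in Be(2)-C, a difference of -3.8 ± 0.87 that was -2.86 and -6.72 without the first and second IMR5-75 library under both drugs. The calls for AMHR2, MYO1E and HLA-DRB5 ended without 1 IMR5-75 DMSO library (replicate 1 for AMHR2, replicate 2 for the others), and that for MYO1E also without the second IMR5-75 library under both drugs.

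**Figure D5:**
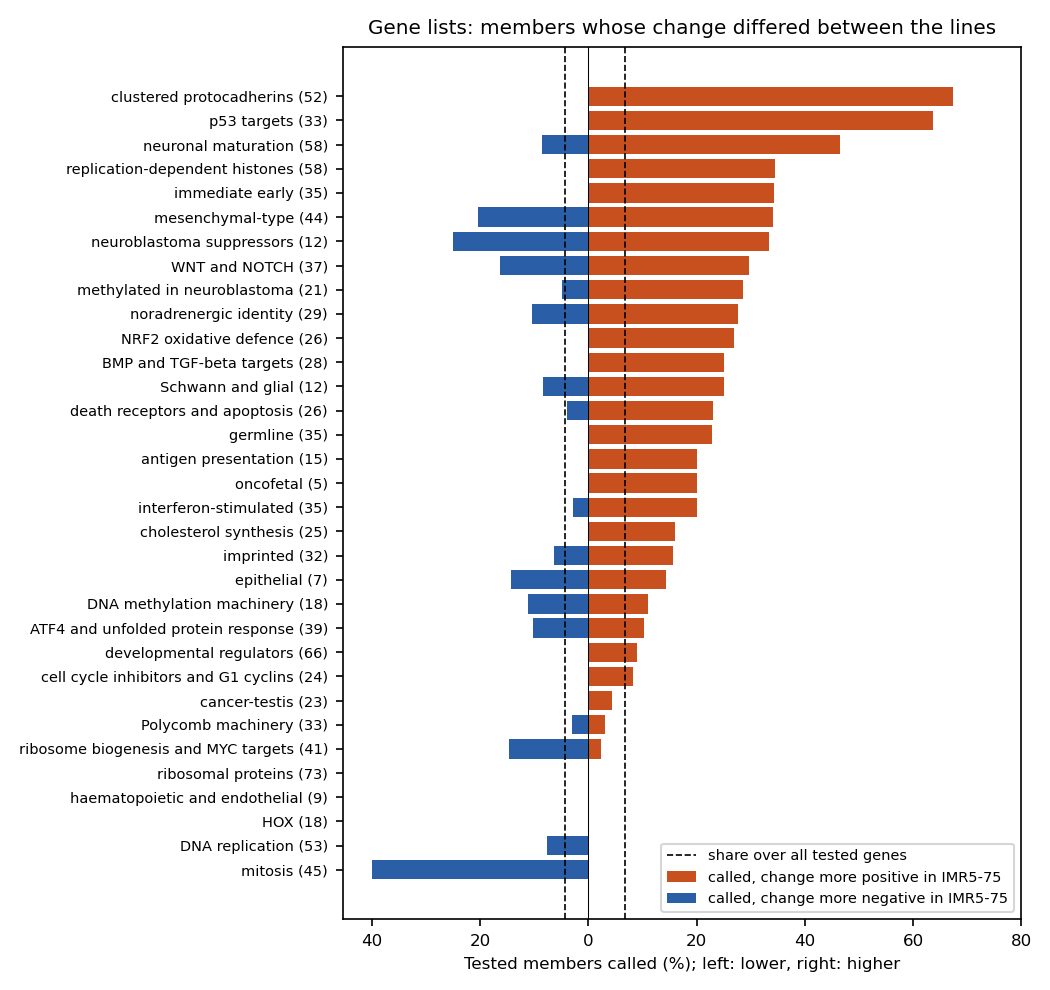
Share of the tested members of each of 33 gene lists (number in brackets) that were called higher (right, orange) or lower (left, blue), with dashed lines at 6.71% and 4.35%, the shares over all 15967 tested genes. Clustered protocadherins (35 of 52) and p53 targets (21 of 33) have the largest shares on the right and mitosis genes (18 of 45) on the left. Only 12 of the 52 protocadherins had at least 10 counts in each of the 4 groups, so their share is partly set by the floor. For mitosis the count was smaller without any of 6 single libraries.

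Of 23 tested cancer-testis antigens, 22 rose in IMR5-75 (25.7% of all tested genes rose there) and 19 in Be(2)-C (13.2%), and 1 (PRAME) was higher (background 6.71%), or 2 without Be(2)-C DMSO replicate 2, the first Be(2)-C library under both drugs or IMR5-75 DMSO replicate 2. Of these 23 antigens, 0 had at least 10 counts in every group, so a missing call does not show that they rose alike. The fitted difference was positive for 18 and negative for 5. MAGEA4 had 0 and then 993 counts in IMR5-75 and 0 and then 7 in Be(2)-C, yet its difference was not called. HOX genes (18 tested) and ribosomal proteins (73 tested) had 0 called in either direction in edgeR and in DESeq2, with 4 HOX genes and 1 ribosomal protein gene at an unadjusted p under 0.05. Where a list above had none lower in edgeR, DESeq2 also called 0 lower; at an unadjusted p under 0.05, 1 histone gene and 2 BMP and TGF-beta targets were lower, and 0 protocadherins, p53 targets, immediate early genes, NRF2 targets or germline genes. Of 35 tested interferon-stimulated genes, 7 were higher (background 6.71%) and 1 (UBE2L6) lower (4.35%), with 3 higher without Be(2)-C DMSO replicate 2, a share near the background; PARP14 had 6 and 139 counts in IMR5-75, and LGALS3BP differed by 1.52 ± 0.22. Of 35 tested germline genes, 8 were higher (background 6.71%) and none lower (4.35%). Fewer were higher without the first Be(2)-C library under both drugs or IMR5-75 DMSO replicate 2. Only 9 of the 35 had at least 10 counts in every group, so this share is partly set by the floor. Cholesterol genes gave 4 higher of 25 (background 6.71%), and 2, a share near the background, without IMR5-75 DMSO replicate 1. Of 41 ribosome biogenesis and MYC target genes, 6 were lower (background 4.35%) and 1 higher (6.71%); without any single library except the second Be(2)-C library under both drugs, 1 to 3 were lower, a share around the background.

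Markers of other cell types moved with these changes at low levels, and their part in the differences was not tested. The summed level of 5 epithelial markers was 4.87 to 7.25 CPM in Be(2)-C after DMSO and 26.7 to 28.4 CPM under both drugs, and 0.841 to 1.4 and 3.6 to 3.71 CPM in IMR5-75. That of 4 Schwann cell markers was 3.03 to 3.39 and 14 to 15.3 CPM in IMR5-75, and 5.42 to 7.16 and 10.4 to 11.8 CPM in Be(2)-C, with SOX10, the defining factor, at 0.663 CPM or less in all 8 libraries. The 6 haematopoietic markers summed to 4.79 to 5.05 and 9.69 to 10.5 CPM in IMR5-75 and to 4.41 to 4.72 CPM in Be(2)-C, and the 3 endothelial markers to 1.89 CPM or less. CD3E and LYZ of the haematopoietic and KRT8 of the epithelial markers were at 0 in IMR5-75 after DMSO, and KRT19 was at 0 there under both drugs.

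Of the genes tied to the drugs' own targets, DNMT3A was the one with a called difference among DNMT1, DNMT3A, DNMT3B, UHRF1, EZH2, EZH1 and MYCN. DNMT1, the maintenance methyltransferase, fell in both lines, with log2 changes of -0.69 ± 0.13 in IMR5-75 and -0.52 ± 0.13 in Be(2)-C, a difference of -0.17 ± 0.18 that was not called. EZH2 fell in both lines (-0.56 ± 0.10 and -0.71 ± 0.11; difference 0.16 ± 0.15), as did UHRF1, which brings DNMT1 to copied DNA (0.19 ± 0.15), and MYCN (-0.23 ± 0.20). The differences of DNMT3B and EZH1 were not called either (-0.24 ± 0.20 and 0.049 ± 0.18). DNMT3A, which sets new methylation, had a difference of -0.58 ± 0.14 (adjusted p = 0.0111); it rose in Be(2)-C (0.41 ± 0.10) and was not called in IMR5-75; that call ended without Be(2)-C DMSO replicate 1, IMR5-75 DMSO replicate 1 or the second IMR5-75 library under both drugs. A difference that missed the threshold is not shown to be absent.

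A 3-way term asked whether the departure of the pair from the sum of the single drugs differed between the lines. It was called for 16 genes (0.10% of those tested), 14 higher (0.0877%) and 2 lower (0.0125%), against 975 at an unadjusted p under 0.05 and 34 in DESeq2; without single libraries the number was 11 to 20, with 1 to 6 lower. INHBE, an activin subunit and stress-response gene, stood at 3.35 and 4.04 CPM in Be(2)-C after DMSO, 6.5 and 14.6 after DAC, 15.9 and 16.7 after EPZ-6438 and 1.34 and 1.57 under both. In Be(2)-C both libraries of each single drug were thus above DMSO and both libraries of the pair below it. In IMR5-75 it stood at 25.3 and 36.7 CPM after DMSO, 17.8 and 17.5 after DAC, 21.5 and 19.9 after EPZ-6438 and 15.1 and 18.3 under both, and the term was 5.48 ± 0.57 (adjusted p = 6.69e-05). HMOX1, heme oxygenase, had the same order of means in Be(2)-C, with 5.8 and 8.91 CPM after DMSO, 6.17 and 16.1 after DAC, 37.9 and 29.2 after EPZ-6438 and 2.49 and 1.57 under both, and a term of 5.41 ± 0.63 (adjusted p = 0.000236). The 2 DAC libraries of Be(2)-C differed by more than 2-fold for both genes. In the opposite direction, FOS in IMR5-75 stood at 2.36 and 4.63 CPM after DMSO, 28.5 and 45.4 after DAC, 22 and 26.4 after EPZ-6438 and 12.5 and 18.1 under both, a term of -4.46 ± 0.60 (adjusted p = 0.00104). For comparison, the lines' change differed for 988 genes under DAC alone (6.19%) and for 190 under EPZ-6438 alone (1.19%); these comparisons share DMSO libraries with that of the pair.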

How the data were processed

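The authors deposited raw read counts per gene symbol for 16 libraries of ribosomal RNA-depleted total RNA. Per the submitters' processing notes, TopHat2 2.0.5, HTSeq 0.5.3p9, DESeq2 and the hg19 build were used. Which gene models were counted, and whether strand was used, is not given in the sources used here; reads of overlapping or antisense genes may therefore be mixed. Genes were filtered with filterByExpr, scaled by TMM and fitted with edgeR 4.0.16 (R 4.3.3, quasi-likelihood test) over all 16 libraries in 8 groups, with 8 residual degrees of freedom and Benjamini-Hochberg adjustment over 15967 genes. SE is the absolute log2 change divided by the square root of F. Ratios of low counts carry exact 95% intervals for counting error only; a group at 0 was set to 3 counts over the group. Scripts were tested on simulated data. Named genes were the widest called differences, the most abundant called genes with few counts, genes called in opposite directions, the first 2 called members of each list, 3-way genes and drug targets; other list members were named after their values were seen. The comparison, its members and the lists were chosen with earlier results of these data known. A gene can be on more than 1 list, so counts of different lists overlap. DESeq2 1.42.0, no filter, replicate blocks, the 8 libraries alone and leaving out single libraries were alternatives; counts per list under them were added after seeing the data. Some results are not reported here.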

Additional observations from a re-analysis of the deposited data

Results flagged for a closer look

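The response to both drugs differed between the lines for 1766 genes by the test of the difference itself, and 130 genes were called in opposite directions in the 2 lines. Both counts are the subject of the report, so single genes of that comparison are not repeated here; only the 16 genes of the 3-way term, the difference between the lines in how the drugs combine, are given. With 2 libraries per group, no group was large enough to look for a single outlying library.

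All 14 genes with a positive term had a higher mean level in Be(2)-C after each single drug than after DMSO. They were INHBE (5.48), HMOX1 (5.41), ULBP1 (4.14), SEL1L3 (3.98), GRB10 (3.92), SLC7A11 (3.82), LRP1B (3.47), ATF5 (2.71), SERPINE2 (2.57), ARHGEF2 (2.35), NBR2 (2.13), AKNA (3.55), WARS (1.33) and NEFM (1.45). SLC7A11, the cystine importer, stood in Be(2)-C at 30.8 ± 6.54 CPM (SD, n = 2) after DMSO, 66 ± 27.2 after DAC, 85.5 ± 6.75 after EPZ-6438 and 10.9 ± 2.63 under both drugs. ATF5, a stress transcription factor, stood at 11.9 ± 2.95, 26.7 ± 6.05, 21.5 ± 5.22 and 7.78 ± 0.327 CPM in the same order. ULBP1, a ligand of the immune receptor NKG2D, stood at 0.867 ± 0.0725, 3.29 ± 1.63, 3.3 ± 0.215 and 0.679 ± 0.0784 CPM. The first Be(2)-C DAC library was below the second for each of these 3 genes, and the part of that spread in the term was not tested.

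In IMR5-75, NEFM stood at 44.2 ± 6.89 CPM after DMSO, 130.3 ± 1.95 after DAC, 38.5 ± 0.335 after EPZ-6438 and 278 ± 32.3 under both drugs. The 2 negative terms were FOS (-4.46) and ADCYAP1 (-1.73), whose mean levels in IMR5-75 were above DMSO after each single drug. ADCYAP1 stood there at 1.41 ± 0.0909, 16.5 ± 1.03, 8.58 ± 1.13 and 31.9 ± 2.19 CPM in that order. Its call ended without Be(2)-C DMSO replicate 2, the first Be(2)-C library under both drugs, either IMR5-75 DMSO replicate or the first IMR5-75 library under both drugs.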

How the results depend on the processing

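Without single libraries, the difference between the lines was called for 1074 to 1541 genes, 770 to 1055 higher and 286 to 573 lower. The response was called for 5775 to 7351 genes in IMR5-75 and 2100 to 3826 in Be(2)-C, and the lines differed for 8848 to 10090 genes under DMSO and 9471 to 10836 under both drugs. The 3-way term was called for 11 to 20 genes, 10 to 14 higher and 1 to 6 lower. It was called for 82 genes without the filter (61 higher, 21 lower) and for 34 in DESeq2 (27 higher, 7 lower), and a replicate block within each line left 1 lower. For the difference, DESeq2's size factors gave 1704 genes, no filter 1981, the DESeq2 test 1678 and the 8 libraries alone 1951. The cause of these changes was not tested.

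Replicate numbers are shared by the groups, but no label says that they mark a shared culture or day, so they are taken as numbers only. Over 10052 genes, deviations of same-numbered libraries correlated at 0.504 between IMR5-75 after DMSO and under both drugs and at -0.186 to 0.245 between the other pairs of groups; with 2 libraries per group this does not settle whether the IMR5-75 libraries are paired. With a replicate block the difference was called for 1597 genes, 999 higher and 598 lower, and the 3-way term for 14; a block within each line gave 1384 and 11. Of the values for single genes, that of EZH1, not called in edgeR, lay between -0.11 and 0.21 without single libraries, and was negative, at -0.016 and -0.11, without Be(2)-C DMSO replicate 2 and the first Be(2)-C library under both drugs. With 2 libraries per group, small differences and genes near 0 are the least certain.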

Other observations

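Of the genes described as promoter-methylated in neuroblastoma, 21 of 28 were tested. Higher were 6 (HIST1H3C, PRPH, TNFRSF10A, DKK3, TNFRSF10C and CD44), beside 6.71% of all tested genes. KRT19 was the 1 lower gene, a share near the background of 4.35%, and its call ended without IMR5-75 DMSO replicate 1. The call for CD44 ended without any single library other than the second IMR5-75 library under both drugs, and that for TNFRSF10C without Be(2)-C DMSO replicate 2. DKK3, a secreted protein of the Dickkopf family, rose from 11.7 ± 0.924 to 23.8 ± 0.402 CPM (SD, n = 2) in IMR5-75 and was not called in Be(2)-C, at 20.9 ± 0.774 and 21.9 ± 0.0103 CPM, a difference of 0.96 ± 0.20 (adjusted p = 0.00291). Of 12 tested genes described as EZH2-repressed in neuroblastoma or encoding neurotrophin receptors, 4 were higher (CDKN1A, CLU, CASZ1 and CHD5), beside 6.71% of all tested genes. Lower were 3 (RGS2, NTRK3 and NGFR), beside 4.35%, and fewer without Be(2)-C DMSO replicate 2. The calls for CASZ1 and CHD5 ended without the first Be(2)-C library under both drugs and Be(2)-C DMSO replicate 1, and that for NGFR without 6 of the 8 libraries. CLU, a secreted chaperone, rose from 16.3 and 10.2 to 60.7 and 71.8 CPM in IMR5-75 and was not called in Be(2)-C, at 197 and 196 CPM, then 215 and 236 CPM, a difference of 2.12 ± 0.22 (adjusted p = 7.64e-07).

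Of 26 tested genes of death receptors and apoptosis, 6 were higher (background 6.71%), or fewer without Be(2)-C DMSO replicate 2. The 1 lower gene was BCL2, a share near the background of 4.35%. TNFRSF10A, TNFRSF10C and BAX are also among the higher p53 targets. TNFRSF10A and TNFRSF10C are among the promoter-methylated genes as well, so these counts overlap. CFLAR, which blocks caspase-8 at death receptors, had 8 counts in IMR5-75 after DMSO and 169 under both drugs, 19.1-fold (95% interval 9.47 to 44.9), and stood in Be(2)-C at 25.7 and 26.6 CPM and 35.8 and 35.7 CPM. Of 66 tested developmental regulators that Polycomb binds in embryonic cells, 6 were higher (9.09%, beside 6.71% of all tested genes) and 0 lower in edgeR and in DESeq2, with 2 lower at an unadjusted p under 0.05.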
